A study of Bos taurus with 4 samples.

Results

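The 7 genes described here encode parts of the pathway that displays peptides on MHC class I molecules: the class I heavy chain gene BOLA, its light chain gene B2M, the peptide transport and loading genes TAP1 and TAPBP, and the immunoproteasome subunit genes PSMB8, PSMB9 and PSMB10. They were chosen by symbol, and each matched 1 row, so they make up 7 of the 14517 transcript rows of the deposited table. Polyadenylated RNA came from bovine (Bos taurus) embryos that had reached 8 to 16 cells on day 3 from insemination, when the bovine embryo is starting to transcribe its own genome. All embryos had received siRNAs as zygotes. The control group (NC, n = 2 libraries) received negative control siRNAs, and the knockdown group (KDM5_KD, n = 2 libraries) received siRNAs aimed at KDM5A, KDM5B and KDM5C, which encode demethylases of lysine 4 on histone H3. One label disagrees: KDM5_KD replicate 2 is titled as a KDM5 knockdown, but its treatment entry names KDM6 genes. It was kept in the group of its title, and results are also given without it. The number of embryos per library is not given in the sources used here, and nothing states that replicates came from separate cultures, so p-values measure only the spread between these libraries.

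Almost all nucleated cells show fragments of their own proteins at the surface on class I molecules. The proteasome cuts proteins into peptides, the transporter formed by TAP1 and TAP2 moves the peptides into the endoplasmic reticulum, and tapasin (TAPBP) holds the transporter beside empty class I molecules, each a heavy chain paired with beta-2-microglobulin, until a peptide binds. Under interferon, cells replace the catalytic proteasome subunits PSMB5, PSMB6 and PSMB7 by PSMB8, PSMB9 and PSMB10, which forms the immunoproteasome. In mammalian preimplantation embryos, class I expression is known to be low and regulated.

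The values are FPKM, fragments scaled to transcript length and library size, so levels can be compared between genes. By the steps between low values NC replicate 2 was the most deeply sequenced, and NC replicate 1 and KDM5_KD replicates 1 and 2 had 0.683, 0.802 and 0.782 times its depth. These are estimates, since 12.5% to 13.4% of the rows used sat at the ratio taken. Absolute depth is unknown. KDM5A, a target of the siRNAs, was at 28.4 and 27.1 FPKM in the controls against 10.5 and 10.1 FPKM in the knockdown libraries. The library with the conflicting label thus had as little KDM5A as the other knockdown library. KDM5C, another target, was lower in both knockdown libraries (15.1 and 17.8 FPKM) than in either control (28.1 and 40.6 FPKM). That difference had a limma adjusted p of 0.123. KDM6A, a gene of the family in the conflicting label, stood at 9.29 FPKM in KDM5_KD replicate 2 and 7.9 FPKM in KDM5_KD replicate 1. The controls lay on either side of both values, at 7.63 and 11.3 FPKM. No level is given here for KDM5B. Embryo markers had rows for 13 of 18 listed genes and summed to 590 and 490 FPKM in NC and 704 and 759 FPKM in KDM5_KD. Large parts of these sums came from BMP15, at 118 and 83.8 FPKM in NC and 149 and 172 FPKM in KDM5_KD. The higher of 2 DPPA3 rows added 179 and 128 FPKM in NC and 249 and 216 FPKM in KDM5_KD. POU5F1 overlapped, at 59.2 and 63.2 FPKM in NC and 60.0 and 56.2 FPKM in KDM5_KD. Markers of cumulus and granulosa cells, which surround the egg, summed to 67.2 and 49.6 FPKM in NC and to 130 and 111 FPKM in KDM5_KD. Much of these sums came from COL1A1, at 28.4 and 23.9 FPKM in NC and 47.7 and 35.8 FPKM in KDM5_KD. LUM added 4.02 and 5.12 FPKM in NC and 23.8 and 15.6 FPKM in KDM5_KD. With no filter on low values, both knockdown libraries lay above both controls for 14 of the 20 cumulus marker rows and 6 of the 14 embryo marker rows, where 33.4% of all transcripts did so with values as deposited. Of the 20 cumulus marker rows, 4 were under 1 FPKM in every library, among them FSHR and CYP19A1 at no more than 0.0602 FPKM. CYP11A1 was 1 of the 14 rows above both controls, at 8.41 and 3.79 FPKM in NC and 12.5 and 17.2 FPKM in KDM5_KD. AMH overlapped, at 2.77 and 1.12 FPKM in NC and 1.28 and 0.957 FPKM in KDM5_KD. Of 16 leukocyte markers 12 were under 1 FPKM in every library, PTPRC among them at no more than 0.094 FPKM, while CSF1R lay between 17.7 and 30.8 FPKM. In bulk RNA of this kind, more cells of a type and more RNA per cell cannot be told apart.

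None of the 7 genes differed between KDM5_KD and NC at a limma adjusted p under 0.05, a threshold that 0.279% of the 8970 tested transcripts passed. All 7 were tested, since each had a mean of at least 1 FPKM over the 4 libraries. PSMB10 passed this filter narrowly, at a mean of 1.02 FPKM, and only through the knockdown libraries, so its position above the controls is partly set by the filter. At an unadjusted limma p under 0.05 there were 3 (TAPBP, PSMB8 and PSMB10), against 17.5% of all tested transcripts. Both knockdown libraries lay above both control libraries for 4 genes (BOLA, TAPBP, PSMB8 and PSMB10), where 35.1% of all tested transcripts did so, and no member lay entirely below the controls, as 15.6% of all transcripts did. With median-ratio scaling of the libraries BOLA overlapped, leaving 3 genes, and the shares of all transcripts became 23.8% above and 28.2% below. After quantile normalization the same 4 genes lay above, against 20.9% of all transcripts above and 28.1% below. Of the 7 fitted differences 6 were above 0, as were 62.6% of all. The median log2 difference of the 7 genes was 0.62, and that of all tested transcripts was 0.09.

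**Figure D1:**
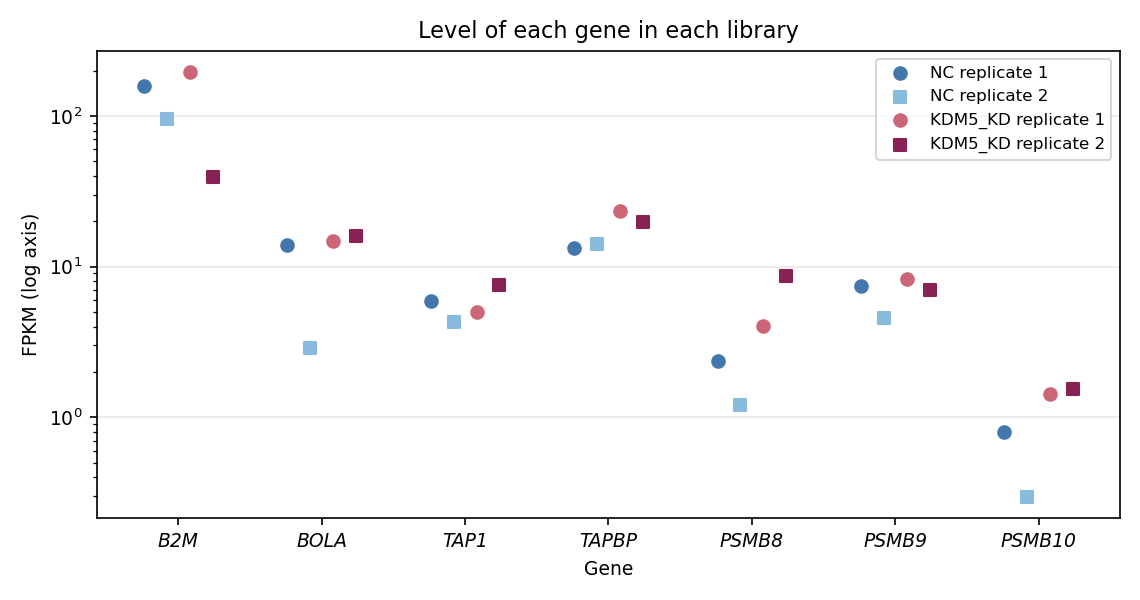
FPKM of each gene in each of the 4 libraries, on a log axis; each point is 1 library, blue for NC and red for KDM5_KD. B2M is the most abundant gene in every library and spreads from 39.4 to 196 FPKM within the knockdown group, and BOLA is low only in NC replicate 2, at 2.90 FPKM.

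The heavy chain gene BOLA (NM_001038518) was at 14.0 and 2.90 FPKM in NC replicates 1 and 2 and at 14.9 and 16.0 FPKM in KDM5_KD replicates 1 and 2. One control library was thus low, and the other lay close to both knockdown libraries. The group means were 8.44 ± 7.84 and 15.4 ± 0.786 FPKM (SD, n = 2), a log2 difference of 1.10 (SE 0.581, limma adjusted p of 0.389). The difference between the NC libraries was 1.94 on the log2(FPKM + 1) scale, and only 0.58% of tested transcripts differed more between these libraries. Against NC replicate 1 alone the BOLA difference was 0.13 (limma adjusted p of 0.781), and against NC replicate 2 alone it was 2.07 and passed the threshold (limma adjusted p of 0.010). Such fits with a lone library assume that it varies like the other group. Class I genes have near-identical copies, among which reads may be divided, so the level of any single row is uncertain.

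The light chain gene B2M (NM_173893) was the most abundant member, with 159 and 95.1 FPKM in NC and 196 and 39.4 FPKM in KDM5_KD. The knockdown libraries held both the highest and the lowest value, so the groups overlapped. Its log2 difference was -0.47 (SE 0.700, 95% confidence interval -2.18 to 1.24, limma adjusted p of 0.777). Intervals given here are not widened for the number of transcripts tested. KDM5_KD replicate 1 had 4.99 times the level of KDM5_KD replicate 2, a log2 difference of 2.29 that 0.256% of tested transcripts exceeded. Without KDM5_KD replicate 2, the library with the conflicting label, the B2M difference turned to 0.67 (limma adjusted p of 0.647). Without KDM5_KD replicate 1 it was -1.62 (limma adjusted p of 0.239).

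On the FPKM scale B2M exceeded the BOLA row in every library. Other class I heavy chain rows, such as that of JSP.1, were not added to BOLA here. BOLA amounted to 8.81% and 3.05% of B2M in the NC libraries and to 7.57% and 40.5% in the knockdown libraries. The last value came from KDM5_KD replicate 2, whose BOLA level was close to that of KDM5_KD replicate 1 and whose B2M level was low. The 2 groups overlapped in this ratio (exact two-sided permutation p = 0.667).

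TAP1 (NM_001098058), a subunit of the peptide transporter, was at 5.94 and 4.26 FPKM in NC libraries, compared with 4.98 and 7.51 FPKM in the KDM5_KD libraries. These values interleave, and the log2 difference was 0.24 (SE 0.259, 95% confidence interval -0.39 to 0.87, limma adjusted p of 0.688). Its sign turned after quantile normalization (-0.0128) and without KDM5_KD replicate 2 (-0.0162), so no direction can be given for TAP1.

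TAPBP (NM_001045885), which encodes the loading factor tapasin, was at 13.2 and 14.1 FPKM in the controls against 23.3 and 19.9 FPKM in the knockdown libraries. Here the replicates of each group lay close together and the groups were separate. The means were 13.6 ± 0.641 and 21.6 ± 2.38 FPKM (SD, n = 2), or 1.58 times the control level. The log2 difference was 0.62 (SE 0.155, 95% confidence interval 0.24 to 1.0, unadjusted limma p of 0.00689, adjusted p of 0.151). TAPBP was the member with the smallest difference between the NC libraries, 0.09 on the log2 scale, and the only one in which NC replicate 1 was not above NC replicate 2. Its difference lay between 0.49 and 0.73 over 12 alternatives, with limma adjusted p between 0.139 and 0.448.

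**Figure D2:**
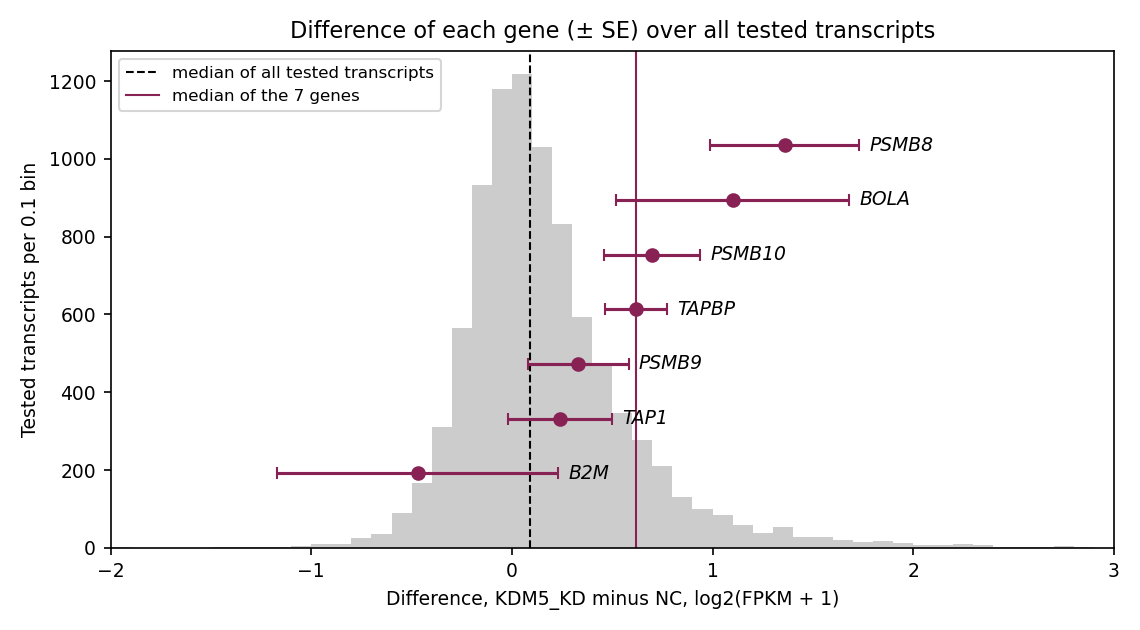
Differences between KDM5_KD and NC on the log2(FPKM + 1) scale for the 7 genes (points, bars are SE), over a histogram of the 8970 tested transcripts, of which 19 lie outside the axis. PSMB8 and BOLA are farthest to the right at 1.36 and 1.10, B2M is the only gene left of 0, and the 7 genes range from -0.47 to 1.36.

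Among the immunosubunits, PSMB8 (NM_001040480), which takes the place of PSMB5, was at 2.35 and 1.21 FPKM in NC libraries, compared with 4.05 and 8.67 FPKM in the KDM5_KD libraries. Both knockdown libraries were above both controls, but the knockdown libraries also differed from each other by 2.14 times. The mean was 1.78 ± 0.804 FPKM (SD, n = 2) for the controls and 6.36 ± 3.26 FPKM (SD, n = 2) for the knockdown, a ratio of 3.57. The log2 difference of 1.36 was the largest among the 7 genes (SE 0.372, 95% confidence interval 0.45 to 2.27, unadjusted limma p of 0.0104, adjusted p of 0.168). Without KDM5_KD replicate 2 it was 0.89 (limma adjusted p of 0.579), and with NC replicate 1 as the only control 1.06 (limma adjusted p of 0.365).

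PSMB9 (NM_001034388), the counterpart of PSMB6, was at 7.40 and 4.56 FPKM in the controls against 8.28 and 6.99 FPKM in the knockdown libraries. NC replicate 1 lay between the knockdown libraries. The log2 difference of 0.33 did not pass (SE 0.252, 95% confidence interval -0.28 to 0.95, limma adjusted p of 0.546). It was 0.04 against NC replicate 1 and 0.63 against NC replicate 2.

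PSMB10 (NM_001034040), the counterpart of PSMB7, was the least abundant member, with 0.798 and 0.297 FPKM in NC and 1.42 and 1.55 FPKM in KDM5_KD. The groups were separate and the knockdown replicates close. The mean was 0.548 ± 0.355 FPKM (SD, n = 2) for the controls and 1.48 ± 0.0866 FPKM (SD, n = 2) for the knockdown, a ratio of 2.71. The log2 difference was 0.70 (SE 0.240, unadjusted limma p of 0.0264, adjusted p of 0.226). At values this low the pseudocount of 1 FPKM compresses the difference, which was 1.41 with a pseudocount of 0.1 FPKM (limma adjusted p of 0.276). The lowest PSMB10 value was in NC replicate 2, the deepest library.

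The constitutive subunits stayed far above the immunosubunits. PSMB5 was at 124, 130, 137 and 119 FPKM in NC replicates 1 and 2 and KDM5_KD replicates 1 and 2. PSMB6 was at 58.3, 60.7, 57.3 and 55.9 FPKM, and PSMB7 at 38.1, 39.1, 40.9 and 37.8 FPKM, in the same order. None of the 3 passed the threshold, and their limma adjusted p lay between 0.801 and 0.993. A ratio of immunosubunit to constitutive subunit within a library does not depend on how libraries are scaled. PSMB8 amounted to 1.89% and 0.930% of PSMB5 in NC and to 2.96% and 7.31% in KDM5_KD. PSMB10 amounted to 2.09% and 0.758% of PSMB7 in NC and to 3.48% and 4.09% in KDM5_KD. PSMB9 was the immunosubunit nearest to its counterpart, at 12.7% and 7.52% of PSMB6 in NC and 14.4% and 12.5% in KDM5_KD.

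Taken as sums, the 3 immunosubunits made up 4.56% and 2.57% of all 6 catalytic subunits in NC and 5.52% and 7.50% in KDM5_KD. The groups were separate for this sum, for PSMB8 and for PSMB10, and overlapped for PSMB9. The smallest p that an exact two-sided permutation test can give with 2 libraries against 2 is 0.333. That was the p of the 3 separate comparisons, or 0.533 after adjustment over the 8 ratios computed, so no ratio could pass. The exact permutation p of the PSMB9 ratio was 0.667. The log2 differences of the ratios depended on the control library: with NC replicate 1 or NC replicate 2 as the only control they were 1.30 and 2.32 for PSMB8, 0.0841 and 0.838 for PSMB9, and 0.850 and 2.31 for PSMB10. With KDM5_KD replicate 1 as the only knockdown library the PSMB8 value was 1.16.

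**Figure D3:**
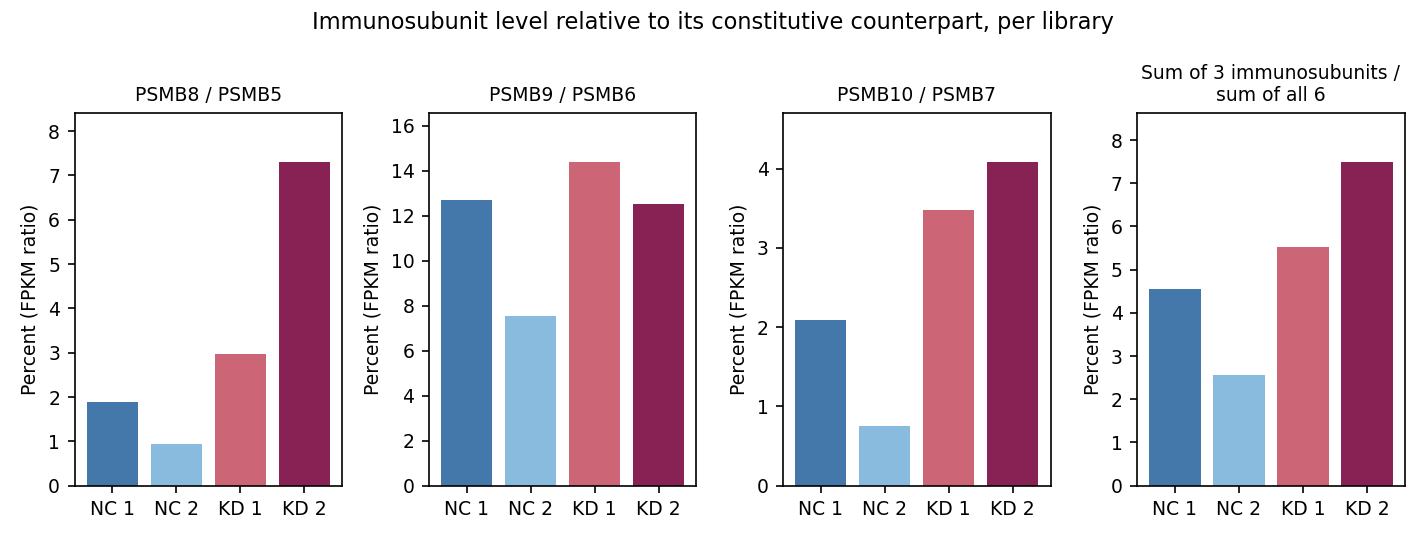
Level of each immunosubunit as a percentage of its constitutive counterpart, and of the 3 immunosubunits as a percentage of all 6 catalytic subunits, from FPKM; each bar is 1 library and each axis starts at 0. NC replicate 2 has the lowest bar in all 4 panels, and the knockdown bars exceed both control bars except for PSMB9.

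In order of mean level the genes ran B2M, TAPBP, BOLA, PSMB9, TAP1, PSMB8 and PSMB10. Only B2M was separated from its neighbour over the ranges of all libraries. TAPBP was above BOLA, BOLA above PSMB9, PSMB9 above TAP1, and TAP1 above PSMB8 in 3 of 4 libraries each. The ranges of these neighbours, taken over both groups, overlapped, and their differences in level were not tested. PSMB8 was above PSMB10 in 4 of 4 libraries. B2M lay among the most abundant transcripts, with 4.77% of tested transcripts at a higher mean, whereas 99.7% had a higher mean than PSMB10. That last rank follows from the filter, since the PSMB10 mean of 1.02 FPKM is just above the 1 FPKM required, and rows below it were not ranked.

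The members also differed between the control libraries. Of the 7 genes, 6 were higher in NC replicate 1 than in NC replicate 2, as were 55.8% of all tested transcripts, and 3 were higher in KDM5_KD replicate 1 than in KDM5_KD replicate 2, as were 44.3%. The median absolute difference between the NC libraries was 0.59 on the log2 scale for the members and 0.22 for all tested transcripts. Between the knockdown libraries these medians were 0.22 and 0.18. Against NC replicate 1 alone the median difference of the 7 genes was 0.13, beside 0.10 for all transcripts, and against NC replicate 2 alone it was 0.63, beside 0.09. Without KDM5_KD replicate 2 the median was 0.67 and without KDM5_KD replicate 1 it was 0.52. The sums of the cumulus markers and of the embryo markers were likewise higher in NC replicate 1 than in NC replicate 2, and higher still in both knockdown libraries. Their part in the differences of the members was not tested.

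**Figure D4:**
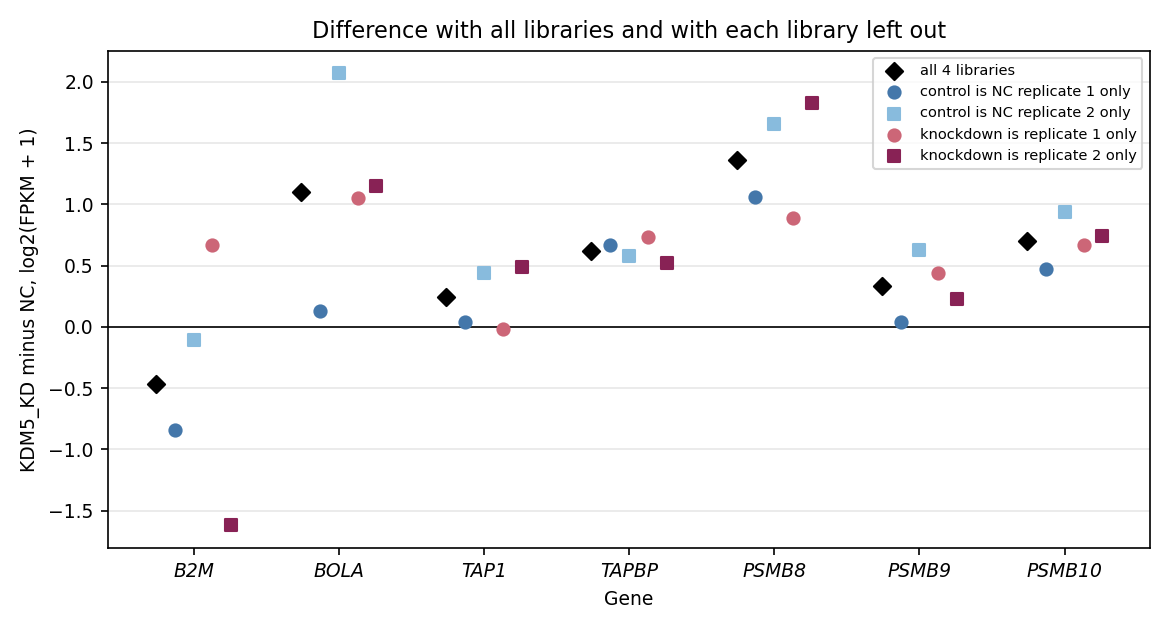
Difference of each gene between KDM5_KD and NC on the log2(FPKM + 1) scale with all 4 libraries (black) and with each library left out in turn (colours name the library that then stands alone for its group). BOLA moves from 0.13 to 2.07 with the choice of control library, B2M from -1.62 to 0.67 with the choice of knockdown library, and TAPBP stays between 0.52 and 0.73.

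PSMB8, TAP1 and PSMB9 are consecutive protein-coding genes on chromosome 23, in the order that RefSeq gives for ARS-UCD2.0, with TAP2 close by on the PSMB8 side, and BOLA and TAPBP lie elsewhere on that chromosome. TAP2, the second transporter subunit, was at 0.801 and 0.504 FPKM in NC libraries, compared with 1.64 and 2.91 FPKM in the KDM5_KD libraries, a log2 difference of 0.96 (limma adjusted p of 0.170), and passed the filter only through the knockdown libraries. TAP1 was at 742% and 845% of TAP2 in NC and at 304% and 258% in KDM5_KD. PSMB8 was at 39.5% and 28.4% of TAP1 in NC and at 81.5% and 115% in KDM5_KD. The groups were separate in both ratios (exact permutation p = 0.333, the smallest possible, or 0.533 adjusted), so no difference between these neighbours is shown by a test, and the ratio of PSMB9 to TAP1 overlapped (exact permutation p = 1). These 3 ratios, and that of BOLA to B2M, were chosen after their values were seen.

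By the likeness of their centred log2(FPKM + 1) values over the 4 libraries, the row nearest to PSMB8 was JSP.1 (NM_001040498), another class I heavy chain gene, at a root-mean-square difference of 0.0281. JSP.1 was at 1.12 and 0.473 FPKM in the controls against 2.23 and 5.30 FPKM in the knockdown libraries (log2 difference 1.35, limma adjusted p of 0.170), and it passed the filter on low values only through the knockdown libraries. The row nearest to BOLA was RTN3 (0.0417), with 71.5 and 16.8 FPKM in NC and 72.9 and 75.0 FPKM in KDM5_KD. The nearest to B2M, at a larger distance of 0.326, was ULBP27, a class I-like ligand gene. SFMBT1 was nearest to TAP1 (0.0155), UBE2B to TAPBP (0.0246), KCNH2 to PSMB9 (0.0292) and MEST to PSMB10 (0.0160). Nearest to the mean of the 7 genes were PGRMC2, EIF5A2, TCF4, AUNIP and MGST2, at 0.0130 to 0.0496. The members themselves lay between 0.115 (PSMB9) and 0.912 (B2M) from their own mean. Levels that ascended from NC replicate 2 through NC replicate 1 and KDM5_KD replicate 1 to KDM5_KD replicate 2 were found for 3 of the 7 genes, BOLA, PSMB8 and PSMB10, and for 13.8% of all tested transcripts.

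The rest of the pathway was described from lists of genes grouped by role, and no transcript of these lists passed the threshold. Of 16 other class I and class I-like genes, 14 had rows and 7 transcripts were tested. Their median log2 difference was 0.36, and 3 of them had both knockdown libraries above both controls (JSP.1, LOC512672 and FCGRT), which is close to the 35.1% of all tested transcripts. JSP.1 and LOC512672 passed the filter on low values only through the knockdown libraries, so they could hardly lie elsewhere. LOC512672, whose next protein-coding gene is the class I gene BOLA-NC1, was at 1.02 and 0.394 FPKM in NC libraries, compared with 1.72 and 2.81 FPKM in the KDM5_KD libraries (log2 difference 0.94, limma adjusted p of 0.195). ULBP27 had a difference of -0.94 with overlapping groups (limma adjusted p of 0.442), and was near 0 FPKM only in KDM5_KD replicate 2.

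Of 18 other genes for peptide transport, loading and trimming, 16 transcripts were tested. Their median was 0.26. On values as deposited 8 lay above and 1 below both controls, where 35.1% and 15.6% of all tested transcripts lay. Of these, TAP2 passed the filter only through the knockdown libraries. With median-ratio scaling the shares of all transcripts were 23.8% and 28.2%, but this list was not recounted with that scaling. Besides TAP2, the largest differences were those of ERAP1, an aminopeptidase that trims peptides (0.55, limma adjusted p of 0.417), and TAPBPL, a tapasin relative (0.48, limma adjusted p of 0.296). The chaperone genes CALR and PDIA3, whose products assist loading, were at 129, 111, 151 and 140 FPKM and at 83.8, 81.3, 92.8 and 83.1 FPKM in NC replicates 1 and 2 and KDM5_KD replicates 1 and 2, far above TAP1.

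Of 10 proteasome activator and assembly genes, 8 were tested, with a median of 0.14. Of these, 3 lay above and 1 below both controls, close to the shares of all tested transcripts (35.1% and 15.6%). PSME1 and PSME2 encode the subunits of the interferon-inducible activator PA28 and were separate between groups. PSME2 was at 19.0 and 19.2 FPKM in the controls against 28.6 and 27.7 FPKM in the knockdown libraries, with replicates closer than in any immunosubunit gene (log2 difference 0.54, SE 0.132, unadjusted limma p of 0.00625, adjusted p of 0.144). PSME1 was at 25.6 and 22.4 FPKM in NC libraries, compared with 33.8 and 32.7 FPKM in the KDM5_KD libraries (log2 difference 0.46, limma adjusted p of 0.191). PSMG3, an assembly chaperone gene, had a difference of 0.33. The other 20S core subunits, 11 transcripts tested, had a median of 0.06.

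Of 26 regulators of class I transcription and interferon signalling, 18 transcripts were tested, with a median of 0.07, and 8 lay above and 2 below both controls, close to the shares of all tested transcripts (35.1% and 15.6%). The largest differences were those of IRF9 (0.63, limma adjusted p of 0.218), a component of the interferon-activated factor ISGF3, of RFX5 (0.48, limma adjusted p of 0.326), which binds class I promoters, and of the kinase gene JAK1 (0.48, limma adjusted p of 0.298). IRF9 was at 4.57 and 3.35 FPKM in the controls against 6.70 and 6.48 FPKM in the knockdown libraries. Of the 26 listed genes 20 had a row, and the class I activator NLRC5 was among those without one.

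**Figure D5:**
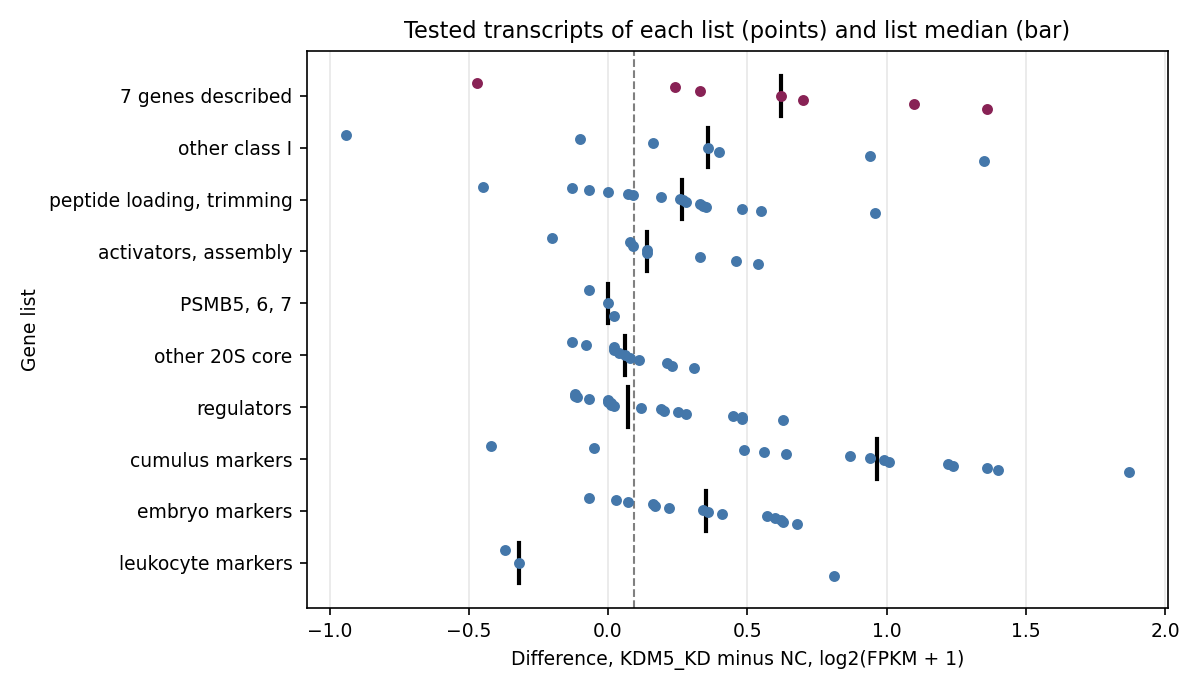
Differences between KDM5_KD and NC on the log2(FPKM + 1) scale for the tested transcripts of each list (points) with the list median (bar); the dashed line is the median of all tested transcripts, 0.09. The 7 genes have a median of 0.62, and the constitutive subunits lie at about 0. Rows that passed the filter of 1 FPKM only through the knockdown libraries lean to the right by selection: PSMB10, 2 of 7 other class I rows, 1 of 16 loading rows and 4 of 14 cumulus marker rows.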

How the data were processed

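The deposited table holds FPKM for 14517 RefSeq accessions in 1 column per library. The unit is taken from the table's name and values. Per the submitters' processing notes, the authors used Trimmomatic, HISAT2, featureCounts and Cufflinks; versions, genome build and annotation are not given in the sources used here. Estimated FPKM can divide reads among similar transcripts. Symbols came from the RefSeq table of ARS-UCD2.0 (14295 accessions matched), so no positions are given.

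Groups came from the sample titles. The test was limma 3.58.1 (R 4.3.3) applied to log2(FPKM + 1) values (lmFit, eBayes with trend, 2 residual degrees of freedom) on 8970 transcripts with a mean of at least 1 FPKM, two-sided, with Benjamini-Hochberg adjustment over all of them. The fit was tested on data simulated from its own variance model, so that check does not cover outlying libraries or differences in depth. Ratios and plots used Python 3.11.15. The members and lists were chosen with earlier results of these data known. Named besides the members were the 3 largest differences of each pathway list (class II included), PSMB5 to PSMB7, and the nearest rows by pattern; genes named outside this rule, such as CALR, PDIA3 and FCGRT, were chosen after their values were seen. Alternatives covered the pseudocount, the filter, scaling, the variance trend, the replicate block, summing by symbol and leaving out each library.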

Additional observations from a re-analysis of the deposited data

How the results depend on the processing

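No member passed a limma adjusted p of 0.05 in any of the 8 alternatives that kept all libraries. With a library left out, 0 to 1 member passed, the 1 being BOLA without NC replicate 1. Over all transcripts, 25 passed as reported, 3 with no filter on low values, 12 with eBayes without a trend, 12 with the replicate number as a block, and 6 to 340 with a library left out, the most without NC replicate 1. The replicate block left every member on the same side of the threshold, with limma adjusted p from 0.139 to 0.658. Deviations of same-numbered libraries correlated at 0.229, and nothing in the labels says that the numbers pair libraries. Of 82 comparisons of members with their alternatives, 78 kept direction and side of the threshold. The exceptions were BOLA above, B2M, which ranged from -1.62 to 0.672 with a library left out (the latter without KDM5_KD replicate 2), and TAP1, which ranged from -0.0162 (without the same library) to 0.493 and was at -0.0128 after quantile normalization; the cause was not tested. The count of 4 separate members was 2 with a filter at a mean of 5 FPKM, which tested only 5 members, against 29.4% of all transcripts, and 4 to 6 with a library left out, against 45% to 50% of all transcripts. The member median ranged from 0.131 to 0.672 with a library left out, the lowest without NC replicate 2. Median-ratio scaling and quantile normalization shifted the median of all transcripts by -0.13 and -0.14. Relative to that median the members stood at 0.52 and 0.51, against 0.53 as deposited. With the filter at a mean of 5 FPKM, which left out PSMB8 and PSMB10, the member median was 0.33. It then stood 0.29 above that of all transcripts. The log2 difference of the PSMB10 to PSMB7 ratio was 1.58, and 0.677 for ratios of FPKM + 1, and 0.850 to 2.31 with a library left out; the added 1 FPKM exceeds the PSMB10 level in NC. Without read counts, the lowest PSMB10 value that these libraries could detect cannot be stated.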

Other observations

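Genes of the MHC class II pathway, which presents peptides from outside the cell, were mostly at or near 0. Of 16 listed genes 12 had a row, 11 of these rows were under 1 FPKM in every library, and BOLA-DRA, BOLA-DQA5, BOLA-DOA, BOLA-DYB and DSB were listed at 0 in every library. The invariant chain gene CD74 was at 0.523 and 0.194 FPKM in the controls against 0.607 and 0.207 FPKM in the knockdown libraries. IFI30, a lysosomal thiol reductase gene, was the row of this list that was tested, at 3.05 and 3.41 FPKM in the NC libraries, compared with 4.64 and 3.45 FPKM in the KDM5_KD libraries (log2 difference 0.25, limma adjusted p of 0.608).

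Among the class I-like genes, ULBP3 was high in the libraries numbered 2 and low in those numbered 1: 0.633 and 4.35 FPKM in NC replicates 1 and 2, and 0.568 and 3.87 FPKM in KDM5_KD replicates 1 and 2 (limma adjusted p of 0.958). FCGRT, the neonatal Fc receptor gene, was at 3.66 and 2.59 FPKM in the controls against 5.19 and 3.68 FPKM in the knockdown libraries (limma adjusted p of 0.462). CD1A had 2 rows, of which 1 was listed at 0 in every library, as was CD1E.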
